A study of Mus musculus with 4 samples.

Results

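Homeostatic astrocyte genes are a set of 36 genes known for their expression in resting astrocytes, measured here in mouse cervical spinal cord on 4 Illumina BeadChip arrays. The members were listed by name, and every array probe whose annotated symbol was a member was taken, which gave 61 of 45281 probes and 34 of 36 genes. Kcnj10 and Clu had no probe under their symbol in the annotation used and were not analysed here. Mlc1, with 1 probe, and Dio2, with 2 probes, were not well above background on any array. The remaining 32 members were among the 14634 features that were tested, and all 32 were above background on all 4 arrays.

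The animals were male NC/Nga mice, 9 weeks old, an inbred strain that develops dermatitis resembling human atopic dermatitis in ordinary animal rooms. The SPF group (2 arrays) was kept free of specific pathogens and had a normal phenotype. The conventional group (2 arrays) was kept in conventional housing and had atopic dermatitis. Housing and skin disease changed together between the groups, so their parts cannot be told apart, and no allele or drug separates the groups. Nothing in the labels says whether the arrays of a group came from separate animals or from pools, so the p-values measure only the spread between these arrays, which may be technical.

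Astrocytes clear glutamate, GABA and glycine from synapses, convert glutamate to glutamine, and take up the potassium that active neurons release. They pass ions and metabolites to each other through gap junctions, line blood vessels with endfeet rich in the water channel aquaporin-4, and secrete lipoproteins and other factors. When they react to injury or inflammation they raise filament and acute phase genes, and the genes described here are the ones by which the resting cell is usually recognised. Several are not restricted to astrocytes: Apoe is also made by microglia, Id3 by vascular cells and Glul by some oligodendrocytes. In whole cord, fewer astrocytes and less RNA per astrocyte cannot be told apart.

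The comparison of conventional with SPF cord asks which of these functions differed in mice with dermatitis. The set as a whole did not lean to either group. Of 32 tested members, 15 were higher and 17 lower in conventional cord, and the median log2 difference (conventional minus SPF) was -0.0030, against -0.00032 over all 14634 features, of which 49.9% were higher. The summed linear level of the 32 probes was 107800 and 103500 on the SPF arrays and 108300 and 101700 on the conventional arrays. That sum is led by the brightest probes. Levels below are background-corrected, quantile-normalised log2 intensities, and a difference comes with the standard error of limma's moderated model (n = 2 arrays per group).

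No member passed the test: 0 of 32 had an adjusted p under 0.05 in limma's moderated test (Benjamini-Hochberg, adjusted across every tested feature), and the adjusted p of each member was 1. Over all features 0% passed. At an unadjusted p under 0.05 there was 1 member, Mfge8, beside 3.03% of all features. Both conventional arrays lay above both SPF arrays in 4 members (15.6% of all features) and below them in 7 members (15.1% of all features), so 21 members overlapped (groups were apart in 30.8% of all features). With 2 arrays against 2, an exact permutation test of any single gene cannot give a two-sided p below 0.333.

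The intervals bound how large a change these arrays leave room for. The 95% interval of every tested member, each taken on its own, lay inside a 2-fold change in either direction, as did 92.3% of the intervals over all features. The half-width of the members' intervals had a median of 0.36 log2 units and ran from 0.23 to 0.82. For 14 of the 32 members (43.8%) the interval lay within 0.5 log2 units of no difference, as it did for 30.5% of all features. The members of narrowest spread include Ttyh1, Gja1, Cldn10 and Aldoc, and the widest intervals were those of Id4 and Aqp4.

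**Figure D1:**
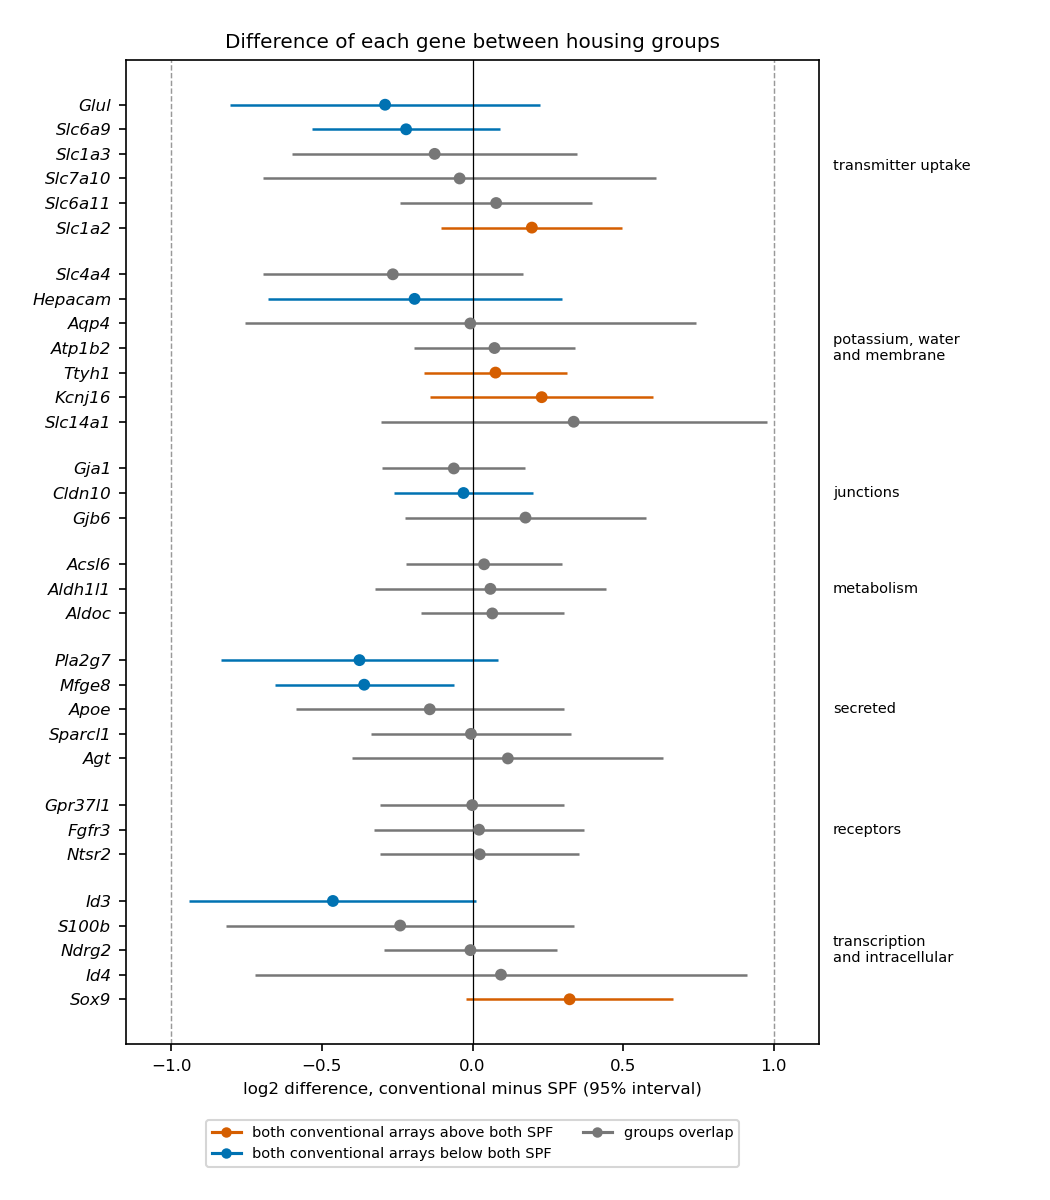
Log2 difference, conventional minus SPF, of the 32 tested homeostatic astrocyte genes (point) with the 95% interval of limma's model (line), ordered by function. Orange marks the 4 genes with both conventional arrays above both SPF arrays, blue the 7 with both below and grey the 21 that overlap, and all 32 intervals lie between the dashed lines at a log2 difference of -1 and 1.

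The members with the largest negative differences were Id3, Pla2g7 and Mfge8, and their promoters are shown because they share the direction with groups that do not overlap. Sequences are from RefSeq (GRCm38.p6), the 250 bases before the annotated start, 5′ to 3′ on the gene's strand. The window of Mfge8 is chr7:79149061-79149310 on the minus strand, that of Id3 chr4:136143572-136143821 on the plus strand and that of Pla2g7 chr17:43568201-43568450 on the plus strand. Capitals mark matches on either strand to a GC box (GGCGGG), a SOX core (ACAAAG or ACAATG), a STAT-type palindrome (TTCNNNGAA) or a TATA box (TATAAA); the pair of GC boxes near the middle of Id3 overlap each other.
Mfge8: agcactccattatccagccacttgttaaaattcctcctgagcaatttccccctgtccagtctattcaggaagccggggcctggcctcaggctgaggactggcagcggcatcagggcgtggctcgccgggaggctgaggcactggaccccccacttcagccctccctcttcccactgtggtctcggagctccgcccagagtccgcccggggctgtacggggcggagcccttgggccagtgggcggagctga
Id3: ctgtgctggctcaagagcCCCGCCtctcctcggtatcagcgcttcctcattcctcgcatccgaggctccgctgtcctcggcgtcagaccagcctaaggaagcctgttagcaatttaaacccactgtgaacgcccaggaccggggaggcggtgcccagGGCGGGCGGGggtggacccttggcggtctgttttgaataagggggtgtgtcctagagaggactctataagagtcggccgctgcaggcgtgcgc
Pla2g7: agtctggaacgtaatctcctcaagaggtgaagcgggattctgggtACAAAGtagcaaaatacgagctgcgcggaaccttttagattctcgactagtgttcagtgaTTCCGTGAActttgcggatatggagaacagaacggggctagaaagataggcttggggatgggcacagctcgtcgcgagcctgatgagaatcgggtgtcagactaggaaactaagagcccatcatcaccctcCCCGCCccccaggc
The Mfge8 window held none of these exact strings and 12 CpG dinucleotides. It does hold GGGCGG, a GC box form shifted by 1 base that was not searched, so it cannot be said to lack GC boxes. The Id3 window held 3 GC boxes and 18 CpG dinucleotides, and the Pla2g7 window held 1 GC box, 1 SOX core and 1 STAT-type palindrome with 14 CpG dinucleotides.

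Promoter windows were found for 30 of the 36 members, 45 windows in all. A GC box in the form GGCGGG, on either strand, stood in 22 of them (48.9%, against 32.5% of all 32851 windows), and a SOX core in 6 (13.3%, against 25.2%). Other forms of the GC box were not counted. A STAT-type palindrome stood in 6 windows (13.3%, against 7.02%) and a TATA box in 6 (13.3%, against 12.4%). The median GC content was 57.2% in members and 52.4% in all windows, which bears on how often a GC-rich or AT-rich motif is met. A match describes the letters and is no evidence of a bound factor.

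Transmitter uptake was the first function compared. Of its 6 tested members 2 were higher and 4 lower in conventional cord, with a median difference of -0.08. Slc1a2 encodes GLT-1, the main glutamate transporter of astrocytes. Its log2 level was 10.17 and 10.26 on the SPF arrays and 10.50 and 10.32 on the conventional arrays, a difference of 0.20 ± 0.13 (95% interval -0.10 to 0.50). Both conventional arrays stood above both SPF arrays, and a further probe for another transcript form of the gene did so too, at 8.97 and 9.18 against 9.28 and 9.48. 3 other Slc1a2 probes were not kept, since they were above background on at most 1 array.

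Slc1a3, which encodes the glutamate transporter GLAST, had levels of 12.58 and 12.16 in SPF cord and 12.49 and 11.99 in conventional cord. Its groups overlapped, and the gap between the arrays of a group was larger than the difference of -0.13 between groups. Glul encodes glutamine synthetase, which turns the glutamate taken up into glutamine. Its probe stood at 6.07 and 5.98 against 5.87 and 5.60, a difference of -0.29 ± 0.22. Both conventional arrays were below both SPF arrays, but the signal of this probe is near background: the difference was -0.10 without background correction of the signals and -0.05 in the authors' normalized values.

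The glycine transporter gene Slc6a9 (GlyT1) stood at 12.75 and 12.82 in SPF cord and at 12.40 and 12.73 in conventional cord. The difference was -0.22 ± 0.13 with no overlap, and most of it lay on conventional replicate 1, since it was -0.06 without that array and -0.38 without conventional replicate 2. The GABA transporter gene Slc6a11 (GAT-3) differed by 0.08 ± 0.13 and overlapped. Slc7a10, which encodes a transporter of glycine and D-serine, differed by -0.04 ± 0.28, and its arrays spread from 9.26 to 10.05.

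Potassium, water and membrane genes had 4 of 7 tested members higher and 3 lower, with a median difference of 0.07. Aqp4, the water channel of astrocyte endfeet, stood at 12.63 and 11.95 in SPF cord and at 12.73 and 11.84 in conventional cord. The group means were 1.01-fold apart, whereas the arrays within the SPF and the conventional group differed by 0.68 and 0.89 log2 units. A dim second Aqp4 probe was above background on both conventional arrays and not well above it on either SPF array. It was kept only through the conventional arrays, so its higher level there is no evidence of a difference. Its signals before correction were 114.2 and 123.7 in SPF cord and 123.1 and 124.6 in conventional cord.

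Kcnj16, which encodes the potassium channel subunit Kir5.1, stood at 8.26 and 8.43 against 8.59 and 8.57. The conventional arrays were both higher, with a difference of 0.23 ± 0.16 (95% interval -0.14 to 0.60). Slc4a4, a sodium bicarbonate cotransporter gene, stood at 9.14 and 8.73 against 8.61 and 8.73, and SPF replicate 1 set its difference of -0.26 ± 0.18, which was -0.06 without that array. Slc14a1, which encodes a urea transporter, had the largest positive difference of all members, 0.34 ± 0.27, with levels of 7.65 and 7.32 against 8.17 and 7.47. The groups overlapped, and without conventional replicate 1 the difference was -0.01. Its other 2 kept probes gave 0.39 and 0.46, with the same array highest.

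The remaining genes of this function differed little at their brightest probes. Atp1b2, which encodes the beta-2 subunit of the sodium-potassium pump, differed by 0.07 ± 0.11. Ttyh1, a membrane protein gene of the tweety family, differed by 0.08 ± 0.10, with all arrays within 0.12 log2 units and no overlap. Its dimmer probes for another transcript form gave larger differences, 0.33 with overlap and 0.46 without. The latter stood at 7.49 and 7.83 in SPF cord and at 8.23 and 8.02 in conventional cord. Hepacam, the adhesion molecule that anchors the Mlc1 protein at astrocyte contacts, differed by -0.19 ± 0.21. Its conventional arrays, at 7.06 and 6.99, lay below the SPF arrays, at 7.37 and 7.06, by less than the second decimal.

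Of the 3 junction genes 1 was higher and 2 were lower in conventional cord, and the 95% interval of each included 0. Gja1, which encodes the main gap junction protein of astrocytes, stood at 13.49 and 13.44 against 13.36 and 13.45, a difference of -0.06 ± 0.10 with overlap. Gjb6, which encodes its connexin partner in astrocytes of grey matter, stood at 11.57 and 12.07 against 11.97 and 12.02. SPF replicate 1 was the low array, and the difference of 0.18 ± 0.17 was -0.08 without it. Cldn10, a claudin gene, was the most even member at its brightest probe: all 4 arrays lay within 0.035 log2 units, at a difference of -0.03 ± 0.10. The conventional arrays of that probe, at 12.88 and 12.88, were both below the SPF arrays, at 12.91 and 12.90. Its other kept probes were less even and overlapped. One stood at 10.90 and 10.87 against 11.16 and 10.76, the other at 10.57 and 10.72 against 10.61 and 10.61.

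Metabolic genes were even as well, with all 3 tested members slightly higher in conventional cord and overlapping. Aldh1l1, the folate enzyme widely used to mark astrocytes, differed by 0.06 ± 0.16. Aldoc, the aldolase isoform of astrocytes, differed by 0.07 ± 0.10, and Acsl6, a fatty acid activating enzyme, by 0.04 ± 0.11. A further Acsl6 probe did not overlap, with conventional arrays at 10.81 and 10.83 and SPF arrays at 10.62 and 10.53. Dio2, which activates thyroid hormone, was not well above background with either probe.

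Secreted factors had the lowest median of the functions, -0.14, with 4 of 5 tested members lower. That median depended on SPF replicate 1: it was 0.07 without that array and -0.35 without SPF replicate 2. Mfge8 encodes a secreted bridging protein by which phagocytes bind phosphatidylserine. It stood at 11.60 and 11.42 in SPF cord and at 11.24 and 11.06 in conventional cord, a difference of -0.36 ± 0.13 or 1.28-fold lower (95% interval -0.66 to -0.06, unadjusted p = 0.0241 and adjusted p = 1 in limma's test). The conventional arrays were both below the SPF arrays, and the difference ran from -0.45 to -0.27 when 1 array was left out. A second Mfge8 probe gave -0.21 with overlap.

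Pla2g7 encodes a secreted enzyme that degrades platelet-activating factor. It stood at 8.45 and 8.29 against 7.80 and 8.19, a difference of -0.38 ± 0.19 with no overlap. Conventional replicate 1 was the low array, and the difference was -0.18 without it. Apoe, which encodes the main apolipoprotein of the nervous system, stood at 12.88 and 12.47 against 12.75 and 12.32. Its groups overlapped at a difference of -0.14 ± 0.19. Microglia also make Apoe, and on the same arrays 8 of 9 microglial markers were tested (Itgam was not above background). Their summed linear level was 2784 and 1981 on the SPF arrays and 2249 and 1653 on the conventional arrays. This sum ordered the arrays as Apoe did. Of the 8 markers, 1 was higher in conventional cord (49.9% of all features), and their median difference was -0.28. The part of microglia in the Apoe and Mfge8 values was not tested. Agt (angiotensinogen) differed by 0.12 ± 0.22 and Sparcl1 (hevin, a secreted matrix protein that promotes synapses) by -0.01 ± 0.14, both with overlap.

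The 3 receptor genes showed the smallest differences of any function, though their median of 0.02 ran from -0.09 to 0.14 when 1 array was left out. Fgfr3, a fibroblast growth factor receptor gene, differed by 0.02 ± 0.15, the neurotensin receptor gene Ntsr2 by 0.02 ± 0.14, and the orphan receptor gene Gpr37l1 by -0.00098 ± 0.13. A dimmer second probe of Fgfr3 disagreed with the first, at 5.84 and 5.68 against 5.28 and 5.40, a difference of -0.42. The groups of this second probe did not overlap, but its signal is near background, at 145.8 and 144.3 against 124.9 and 130.6 before correction. The Fgfr3 value given first belongs to the brighter probe.

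Transcription and intracellular genes spread the most, and their median of -0.01 was 0.09 without SPF replicate 1 and -0.41 without SPF replicate 2. Sox9, the transcription factor that maintains astrocyte identity, stood at 10.05 and 10.07 in SPF cord and at 10.22 and 10.54 in conventional cord. The SPF arrays were nearly equal, both conventional arrays were higher, and the difference was 0.32 ± 0.15 or 1.25-fold (unadjusted p = 0.0623 in limma's test). It was 0.16 without conventional replicate 2, and a dimmer second probe gave 0.08 with overlap. Id3 and Id4 encode inhibitors of DNA binding, which block basic helix-loop-helix factors downstream of BMP signals. Id3 stood at 8.18 and 7.79 against 7.58 and 7.47, the largest difference of any member in size, -0.46 ± 0.20 (unadjusted p = 0.0550 in limma's test). SPF replicate 1 was the high array, and without it the difference was -0.27.

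Id4 differed by 0.09 ± 0.35, with SPF arrays at 8.77 and 7.77 and conventional arrays at 8.65 and 8.07, so the arrays of a group differed far more than the groups. S100b, which encodes a calcium-binding protein, stood at 8.27 and 7.69 against 7.59 and 7.90. SPF replicate 1 was again high, and the difference of -0.24 ± 0.24 was 0.05 without it. Ndrg2 differed by -0.01 ± 0.12.

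**Figure D2:**
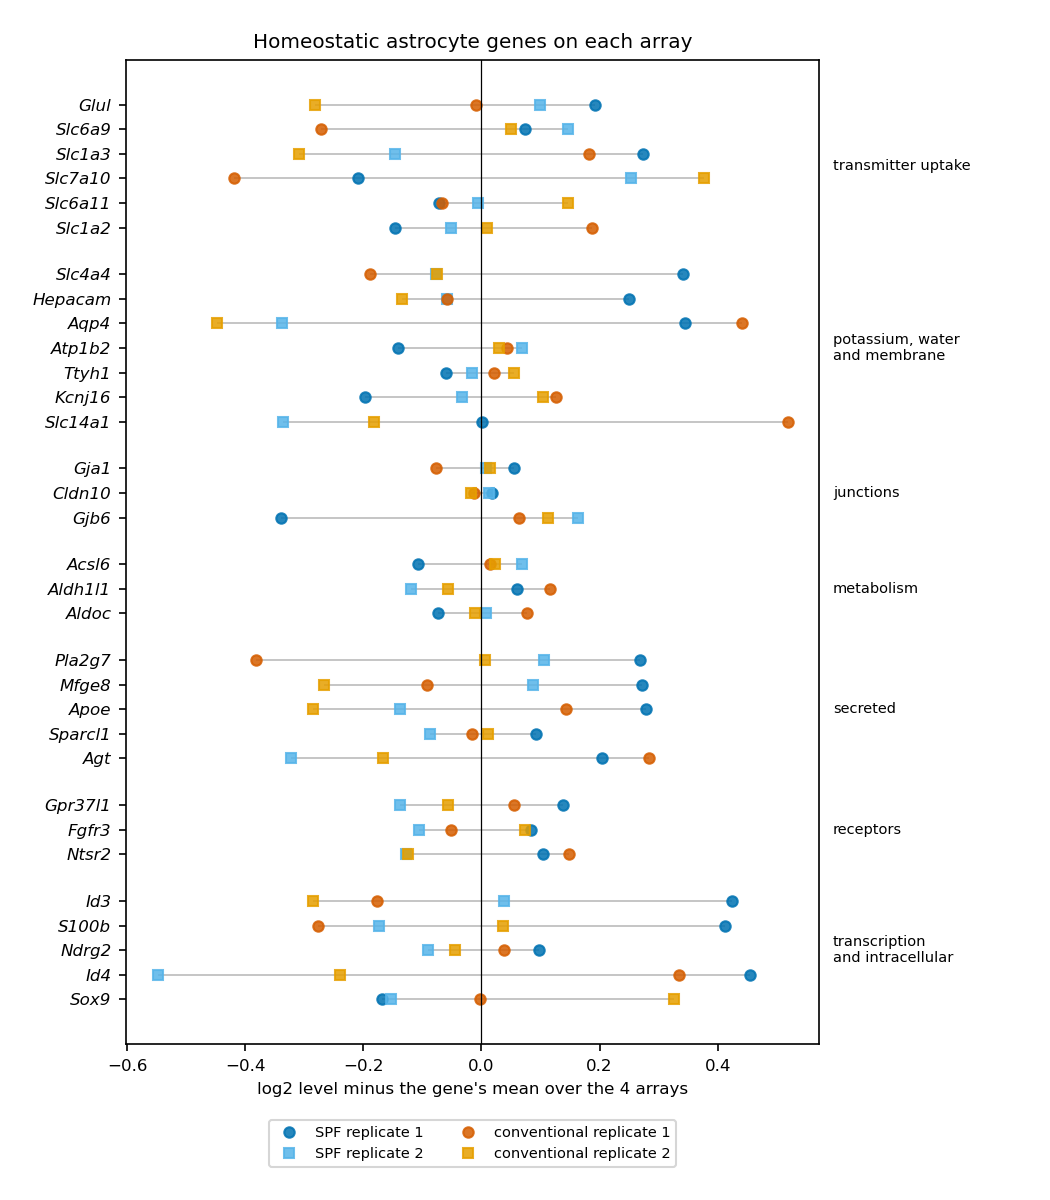
Log2 level of each tested homeostatic astrocyte gene on each of the 4 arrays, minus the gene's mean over the arrays (blue for SPF, orange for conventional, circles for replicate 1 and squares for replicate 2). At the brightest probe, which stands for the gene, Cldn10 and Ttyh1 lie within 0.12 log2 units. In Aqp4, Id4, Slc1a3, Apoe and Agt both circles stand right of both squares.

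The arrays of a group were set against each other as well. The median absolute gap was 0.19 log2 units between the SPF arrays and 0.17 between the conventional arrays, and the median absolute difference between the group means was 0.11. Over all features these were 0.20, 0.20 and 0.13. A gap between single arrays is expected to be wider than a difference of means of 2 arrays, so the gaps being wider is no finding by itself. In 7 of 32 members (21.9%) the group difference was larger than both gaps, as in 20.2% of all features. SPF replicate 1 was the highest array in 16 members (50%, against 27.4% of all features), and leaving it out moved the count of members higher in conventional cord from 15 to 19.

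The gaps often ran the same way in both groups. In 15 members the array numbered 1 was the higher in both groups (46.9%, against 30.3% of all features), and in 7 the array numbered 2 was (21.9%, against 32.3%). In 6 members both gaps were over 0.4 log2 units (18.8%, against 8.75% of all features). Of these, Aqp4, Id4, Agt, Slc1a3 and Apoe were higher on the arrays numbered 1, and Slc7a10 was higher on the arrays numbered 2. Across the 32 members the gaps correlated with Pearson's r = 0.61 and Spearman's rho = 0.51, against 0.20 and 0.33 across all features. These are descriptions across genes of the same 4 arrays, and genes are not independent replicates. The labels give no meaning to the replicate numbers.

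Other genes of the cord also varied between these arrays. The intermediate filament genes Gfap and Vim were, like Aqp4, higher on the arrays numbered 1 in both groups (30.3% of all features). Both belong to the list of reactive astrocyte genes and were picked after their values were seen. In that list Cp, Aspg and Hspb1 did not follow this order, and the other tested genes did. Gfap stood at 14.58 and 13.81 in SPF and 14.78 and 13.93 in conventional cord, and Vim at 9.07 and 8.22 against 8.81 and 7.76. Meningeal fibroblast markers (7 of 8 tested, Slc6a20a not above background) did not follow that order, since their summed linear level was 5084 and 22740 on the SPF arrays and 7690 and 2433 on the conventional arrays. Oligodendrocyte markers (8 of 9 tested) summed to 113700 and 101100 in SPF and 102600 and 99690 in conventional cord, highest on SPF replicate 1. Red blood cell markers (4 of 4 tested) were the list in which every marker had both conventional arrays below both SPF arrays (15.1% of all features). They summed to 42940 and 29340 in SPF and 20890 and 13010 in conventional cord. All 4 had an unadjusted p under 0.05 (3.03% of all features) and an adjusted p of 1 in limma's test. Skeletal muscle markers (4 of 6 tested, Myh1 and Myh4 not above background) summed to 1137 and 352.9 against 456.8 and 266.7, and endothelial markers (7 of 7 tested) to 3702 and 5119 against 5392 and 5539. Sums of oligodendrocyte, microglial, red blood cell and skeletal muscle markers were also higher on the arrays numbered 1 in both groups. Those of neuron, endothelial and ependymal markers were higher on the arrays numbered 2 in both groups. The sums of oligodendrocyte precursor, pericyte and Schwann markers, like the meningeal sum, followed neither order. The part of other cells in the members' values was not tested.

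**Figure D3:**
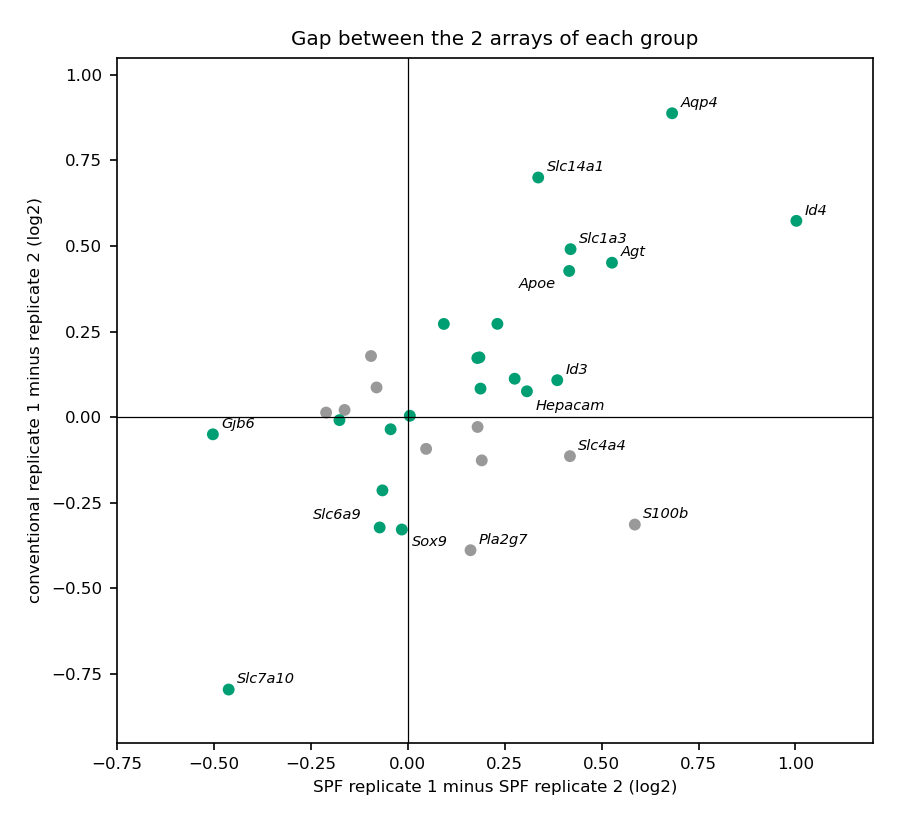
Gap between replicate 1 and replicate 2 in log2 units, SPF on the horizontal and conventional on the vertical axis, for the 32 tested homeostatic astrocyte genes (green where both gaps have the same sign, grey where they differ; genes with a gap over 0.3 are named). Aqp4 and Id4 lie far to the upper right and Slc7a10 to the lower left, and 15 genes lie in the upper right quadrant.

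Different probes of a gene did not always agree. Of 12 members with several kept probes, 7 had all probes on the same side of 0 and 5 (Aqp4, Cldn10, Fgfr3, Id4 and Ndrg2) did not. Aqp4 is among the 5 only through its dim second probe, which was kept only through the conventional arrays and is no evidence of disagreement. Mfge8, Slc1a2, Slc14a1, Sox9 and Ttyh1 were among the 7.

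**Figure D4:**
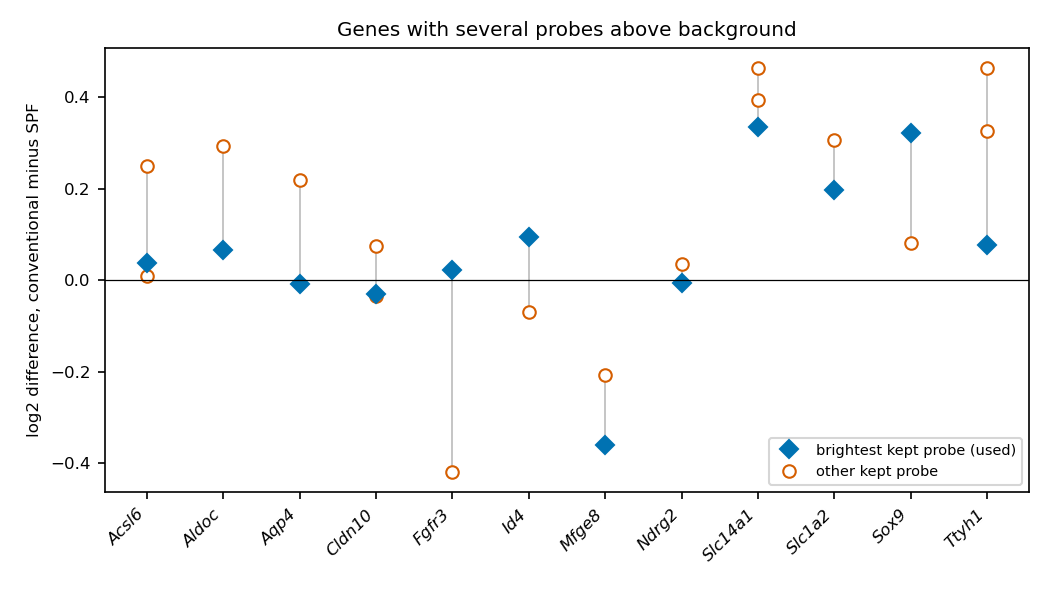
Log2 difference, conventional minus SPF, of every kept probe of the 12 homeostatic astrocyte genes with several probes above background (diamonds for the brightest probe, which stands for the gene, open circles for the others). The 3 probes of Slc14a1 lie between 0.34 and 0.46, those of Fgfr3 at 0.02 and -0.42; the open circle of Aqp4 was not well above background on the SPF arrays.

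Related genes outside the set were read from lists by function, and 0 of their genes passed the adjusted threshold in limma's test. At an unadjusted p under 0.05 in limma's test there were 3 over all these lists, whose tested numbers follow, beside 3.03% of all features. They were Lcn2 and the growth factor pathway genes Fgfr2 (-0.29 ± 0.10) and Fgf1 (0.27 ± 0.11), the last 2 named after their values were seen. In the glutamate and glutamine cycle 7 of 12 tested genes were higher (median 0.05). Slc38a5, a glutamine transporter gene, differed by 0.80 ± 0.35, at 8.42 and 9.57 against 9.99 and 9.60. Its groups were only just apart, and SPF replicate 1 was the low array. Slc7a11, the cystine-glutamate exchanger gene, differed by -0.70 ± 0.38, and the neuronal glutamate transporter gene Slc1a1 by 0.25 ± 0.16. In glycine and GABA handling 1 of 10 was higher (median -0.06). Slc6a13, a GABA transporter gene of the meninges, differed by -1.01 ± 1.03 and spread from 6.92 to 10.58, highest and lowest on the same arrays as the meningeal markers. The groups of Slc7a11 also overlapped, with the same highest and lowest array. Shmt1, a serine and glycine enzyme, differed by -0.24 ± 0.31 and Dld by 0.23 ± 0.21.

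Potassium, water and anchoring partners had 6 of 10 higher (median 0.11), with the aquaporin gene Aqp9 at 0.29 ± 0.25, the chloride channel gene Clcn2 at -0.24 ± 0.21 and the carbonic anhydrase gene Car2 at -0.22 ± 0.14. Connexin partners had 5 of 8 higher (median 0.10), led in size by Gjb2 (-0.58 ± 0.52), Gjc1 (0.29 ± 0.21, above background on 1 SPF array) and Gja4 (-0.29 ± 0.23). Gjb2 overlapped and was also highest and lowest on the same arrays as the meningeal markers. Glycogen, lactate and folate genes had 4 of 8 higher (median 0.04), with Ldhb at -0.31 ± 0.25, Aldh1l2 at -0.31 ± 0.25 and Ldha at 0.29 ± 0.16. Lipid particle genes had 5 of 10 higher (median 0.01), with Lpl at -0.39 ± 0.32, Lcat at -0.34 ± 0.37 and the sterol exporter gene Abcg1 at 0.23 ± 0.19.

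Among transcription factors of astrocytes and the Notch, BMP and FGF pathways, 13 of 18 tested genes were lower, with a median of -0.10. The Notch target genes Hes1 and Hes5 differed by -0.35 ± 0.20 and -0.31 ± 0.42, and the transcription factor gene Rfx4 by -0.31 ± 0.15. Hes1 stood at 7.19 and 7.23 against 6.74 and 6.97, and both it and Rfx4 had conventional arrays below the SPF arrays, as Id3 did. Groups did not overlap in 7 of the 18 genes (30.8% of all features), with conventional arrays lower in 5 (Hes1, Rfx4, Id1, Nfib and Fgfr2, against 15.1% of all features) and higher in 2 (Fgf1 and Fgfr1, against 15.6%). Id1, Nfib and Fgfr1 were named after their values were seen. The reference list of reactive astrocyte genes had 6 of 10 higher (median 0.09) and a wider spread than the homeostatic genes. It ran from -0.67 ± 0.64 for Cp and -0.53 ± 0.56 for Aspg to 2.30 ± 0.50 for Lcn2. Cp and Aspg overlapped, and both were highest and lowest on the same arrays as the meningeal markers. The part of meningeal cells in the values of these related genes was not tested. Lcn2 stood at 6.29 and 6.28 against 9.46 and 7.71. No member of the homeostatic set came near that size, since their differences lay between -0.46 and 0.34.

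**Figure D5:**
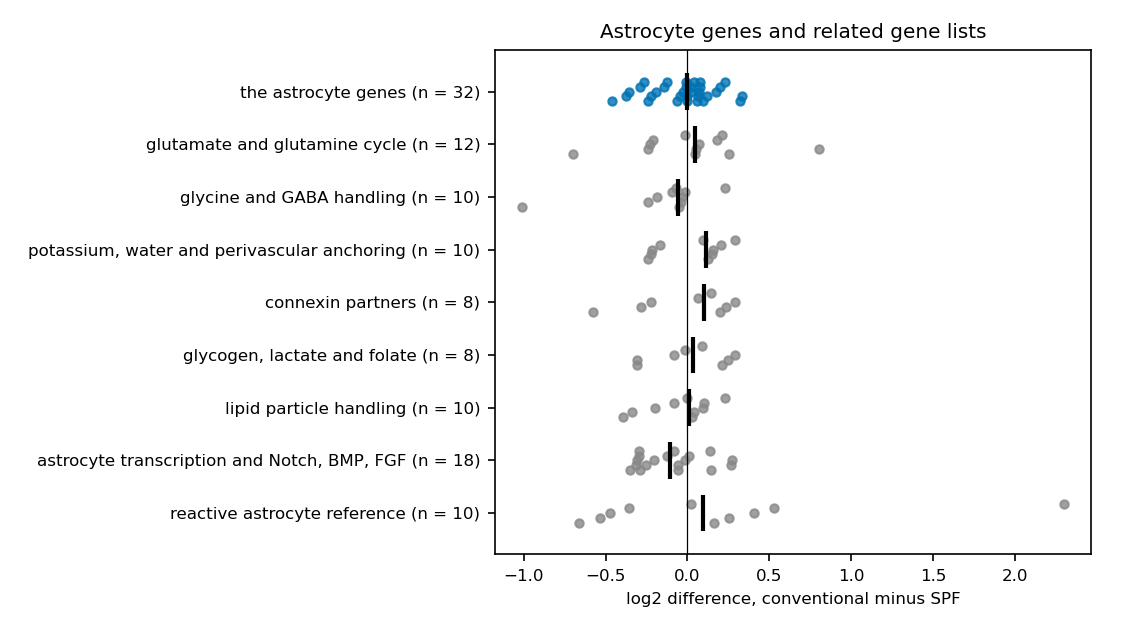
Log2 difference, conventional minus SPF, of each tested gene (points) in the homeostatic astrocyte set (blue) and in related lists (grey), with the median as a black bar; vertical scatter within a row only separates points. The 32 homeostatic genes lie between -0.46 and 0.34, and Lcn2 is the point at 2.30 in the reactive list.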

How the data were processed

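Cervical cord RNA was hybridised to 4 Illumina BeadChips. The deposited bead signals are linear intensity values that, per the file headers, had not been normalized, each with a detection p-value against negative-control beads, per the file headers. The authors' value table, used as an alternative, holds normalized intensity values, per the submitters' processing notes made with lumi with unstated settings. The scanner program and the build were not given in the sources used here. Probes were named through the platform annotation (34885 of 45281 carry 1 symbol).

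Signals were background-corrected, quantile normalized and log2-transformed with neqc (limma 3.58.1, R 4.3.3; offset 16). Probes with a detection p under 0.05 on at least 2 arrays were kept (21065); the brightest kept probe stood for a gene (14634 features: 11476 genes, 3158 unnamed probes). Groups were compared over all features with limma's moderated linear model (variance trend, two-sided test, Benjamini-Hochberg threshold 0.05). The fit was tested on simulated data. Array number limits the precision. Motifs were searched in RefSeq promoter windows.

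Alternatives covered background correction, normalization, the authors' table, filters, probe averaging, variance models, a replicate block and each array left out. All members were named; of each related list the 3 genes of largest absolute difference were named, and Gfap, Vim, the second Fgfr3 and Acsl6 probes and the 3 promoters shown were chosen after their values were seen. Members and lists were chosen with earlier results of these data known.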

Additional observations from a re-analysis of the deposited data

How the results depend on the processing

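No tested homeostatic astrocyte gene passed the adjusted threshold under any of 10 processing alternatives or with any of the 4 arrays left out, and the lowest adjusted p was 0.477 in limma's test. The number of them higher in conventional cord ran from 14 to 17 under the processing alternatives. With 1 array left out it ran from 11 (SPF replicate 2 absent) to 19 (SPF replicate 1 absent). Their median difference ran from -0.01 to 0.01 and, with 1 array left out, from -0.09 to 0.05. The sign held throughout in 13 members, turned in 4 under a processing alternative and in 18 without some array. Aqp4 was among the 4, at 0.11 with the mean of its kept probes. That mean takes in the dim second probe, kept only through the conventional arrays.

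Differences of dimmer members were smaller in the authors' normalized values: Id3 -0.22, Pla2g7 -0.20, Slc14a1 0.16, Hepacam -0.07, Kcnj16 0.14 and S100b -0.12, while Mfge8 stood at -0.35. With the mean of a gene's kept probes Ttyh1 stood at 0.29, Aldoc at 0.18, Acsl6 at 0.10, Sox9 at 0.20 and Fgfr3 at -0.20. The median of the 3 junction genes was -0.051 with cyclic loess, -0.050 with median scaling and 0.0036 with the mean of kept probes, and -0.038 to -0.016 with 1 array left out. That of transmitter uptake genes ran from -0.10 to 0.024, of Notch, BMP and FGF genes from -0.22 to -0.063, of connexin partners from -0.043 to 0.17 and of reactive genes from -0.48 to 0.41 with 1 array left out. Connexin partners had a median of -0.22 with a detection p under 0.01 on all 4 arrays. That filter takes out dim genes such as Gjc1 (0.29 ± 0.21), so this median is over fewer genes. The cause of the other changes was not tested.

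With the replicate number as a block, 5 of all features passed (Erdr1, Hba-a1, Hbb-bs, Hbb-bt and Opalin, named after their values were seen), against 0 without it, and 0 homeostatic astrocyte genes. The deviations of arrays with the same number correlated at 0.20 over all features. The labels do not say that a number marks a shared animal, litter or day, so the arrays share only a number. Leaving out 1 array, from 0 to 2 features passed over all and from 0 to 1 among reactive genes, the latter Lcn2 without conventional replicate 2. With 2 arrays per group, the number of arrays limits what could be called.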
